A study of Mus musculus with 6 samples.

Results

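Transcripts of 7 genes of the 2′-5′ oligoadenylate synthetase (OAS) family were examined in whole adult brain of editing-deficient *Adar1* mice: *Oasl2*, *Oasl1*, *Oas2*, *Oas3*, *Oas1a*, *Oas1b* and *Oas1c*. They were selected by gene symbol alone from the 37310 genes of the raw count table, so that genes too low for the filter used in the study are included. Mice of both groups were 12 weeks old and homozygous for deletion of *Ifih1*, the gene for the dsRNA sensor MDA5. Wild type therefore refers to *Adar1* only. In *Adar1* E861A brain *Oas1a* was at 6.37-fold, *Oasl2* at 3.35-fold and *Oas2* at 3.22-fold the wild-type level. Each of these passed in every alternative analysis that tested it. *Oas3*, at 5.31-fold, passed but lost its call in 4 of 6 analyses that left out a library. *Oasl1*, *Oas1b* and *Oas1c* did not pass.

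OAS enzymes are sensors of double-stranded RNA (dsRNA). When bound to dsRNA they polymerise ATP into short 2′-5′ linked oligoadenylates (2-5A), a second messenger of the antiviral response that leads to RNA decay. The OAS genes are induced by type I interferon, and their enzymes are sensors of unedited endogenous dsRNA in cells that lack ADAR1, beside the dsRNA sensor MDA5.

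All mice were 12-week-old C57BL/6 males, and all were homozygous for deletion of *Ifih1*, the gene for MDA5. The *Adar1* E861A group (*Adar1* E861A/E861A *Ifih1*-/-) carried on both alleles a point mutation that inactivates the editing activity of ADAR1 and leaves the protein in place. The control group (*Adar1* +/+ *Ifih1*-/-), called wild type below, differed in having normal *Adar1*. OAS transcripts of brains with MDA5 were not analysed here. Each group was sequenced as 3 independent biological replicates, and since the mutation and the deletion were present in every cell from conception, life-long and acute effects cannot be told apart. The labels also describe the tissue once as foetal, whereas every sample label gives adult brain at 12 weeks.

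Library totals ranged from 26853488 to 38076753 counts. Transcripts of neurons, astrocytes and oligodendrocytes were abundant in all 6 libraries. The summed neuronal markers lay lower in *Adar1* E861A (3946 to 4039 CPM, a gene's counts scaled to the library total) than in wild type (4096 to 4146 CPM), and 0 of the 6 genes passed the test. The summed astrocyte markers lay higher in *Adar1* E861A (5035 to 5270 CPM) than in wild type (4448 to 4707 CPM), and 0 of the 5 genes passed. That sum was carried by *Slc1a2* (log2 fold change 0.19), while *Gfap*, *Aqp4*, *Gja1* and *Aldoc* had log2 fold changes between -0.07 and 0.03. The sum of the 7 microglial markers lay lower (149.8 to 161.8 against 162.7 to 165.7 CPM, 0 of 7 past the test), although *Aif1* and *C1qa* had log2 fold changes of 0.16 and 0.06. The sum of the 5 endothelial markers also lay lower (98.3 to 121.5 against 124.8 to 151.1 CPM), and 1 of them, *Flt1*, fell by 0.38 on the log2 scale (adjusted p = 0.0445). *Adar1* E861A replicate 1 held 438.8 CPM of pituitary markers, *Gh* and *Prl* above all, against at most 3.53 CPM in the other libraries. *Adar1* E861A replicate 3 held 8.30 CPM of the 4 markers of other myeloid cells, against at most 2.87 CPM elsewhere. That sum was carried by *S100a8* (94 counts) and *S100a9* (111 counts). *Ly6c2* (4 counts) and *Ccr2* (14 counts) were within the range of the other libraries. The part of these differences in the OAS values was not tested, and results without each library are given below. Counts of *Adar* ranged from 4063 to 6556 and those of *Ifih1* from 38 to 56 over the 6 libraries, and neither checks the genotype, since a point mutation leaves the transcript and *Ifih1* was deleted in both groups.

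The 7 members lie in 2 runs on chromosome 5 (coordinates in NCBIM37, mm9). The first, of 41.0 kb, holds *Oasl2* (ENSMUSG00000029561, bases 115346943 to 115362243) and *Oasl1* (ENSMUSG00000041827, bases 115373249 to 115387924), both on the plus strand. The second, of 177.2 kb, holds *Oas2* (ENSMUSG00000032690, 121180342 to 121199862), *Oas3* (ENSMUSG00000032661, 121203107 to 121227670), *Oas1c* (ENSMUSG00000001166, 121250102 to 121262523), *Oas1b* (ENSMUSG00000029605, 121262644 to 121274186) and *Oas1a* (ENSMUSG00000052776, 121346265 to 121357536). In this run *Oas1b* is on the plus strand and the other members are on the minus strand. *Oas1d* to *Oas1h*, mouse copies of *Oas1* that are not members, lie in or next to it.

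Promoter sequence was searched for the core of the interferon-stimulated response element, a promoter site of genes induced by type I interferon, taken as GAAA, any 2 bases and GAAA, on both strands. RefSeq promoter windows (GRCm38.p6; 250 bases before to 50 after the start) were given for 5 of the 7 members and not for *Oas1b* or *Oas2*. The core occurred in 3.44% of all 32851 windows and in those of *Oas1a*, *Oas1c* and *Oas3*. It was not found in the windows of *Oasl1* or *Oasl2*. A core with 3 bases between the GAAA units was in no member window and in 2.75% of all windows. The gamma-activated site, taken as TTC, any 3 bases and GAA, occurred once in that of *Oas1a* and in 8.3% of all windows. A match describes these letters in this window only. The 30 bases around each match, located in NCBIM37 by exact identity, are shown because those of *Oas1a* and *Oas1c*, whose transcripts gave the largest and the smallest fold change, hold the same motif run. Capitals mark the motif, which in *Oas1a*, *Oas1c* and the non-member *Oas1g* is a 16-base run of 2 overlapping matches.

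Oas1a, chr5:121357532-121357561, minus strand: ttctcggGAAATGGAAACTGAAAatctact

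Oas1g, chr5:121337618-121337647, minus strand: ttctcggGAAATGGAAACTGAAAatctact

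Oas1c and Oas1b, chr5:121262615-121262644, plus strand: ttcccggGAAATGGAAACTGAAAgtcccat

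Oas3, chr5:121227724-121227753, minus strand: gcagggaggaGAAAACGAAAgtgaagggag

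The *Oas1a* and *Oas1g* stretches were identical at 30 of 30 bases. *Oas1b* and *Oas1c* start head to head, 120 bases apart, and the stretch between them was identical to that of *Oas1a* at 25 of 30 bases, including the whole 16-base run. The run ends 7 bases from the annotated start of *Oas1b* and lies 99 bases from that of *Oas1c*, for which it is on the opposite strand.

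Together the 7 members gave 315, 427 and 343 counts in the 3 *Adar1* E861A libraries and 152, 132 and 128 counts in the wild-type libraries. Their summed level was 11.8 ± 0.932 CPM (SD, n = 3) against 3.75 ± 0.395 CPM (SD, n = 3), a ratio of 3.15. In bulk tissue more RNA per cell and more cells that express a gene cannot be told apart. *Oasl2* alone supplied 56.9% to 60.2% of the members' counts in *Adar1* E861A and 51.6% to 59.9% in wild type. *Oas1c* supplied 4.96% to 8.89% in *Adar1* E861A and 13.6% to 15.1% in wild type, so its share was smaller in every *Adar1* E861A library.

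Genotypes were compared with edgeR's quasi-likelihood test over the 19366 genes kept by its filterByExpr filter, and adjusted p refers to Benjamini-Hochberg adjustment over all of them. Of those genes 110, or 0.568%, passed at an adjusted p under 0.05, and 0.449% passed as higher in *Adar1* E861A. Of the 7 members 4 passed, *Oasl2*, *Oas2*, *Oas3* and *Oas1a*, all higher in *Adar1* E861A. Without *Adar1* E861A replicate 1, the library with pituitary transcripts, or without replicate 3, the one highest in *S100a8* and *S100a9*, 3 passed and *Oas3* did not. The median log2 fold change was 1.74 over the members and 0.00010 over all genes tested. *Oasl1*, *Oas3* and *Oas1a* were above the filter's cutoff (0.278 CPM) in no wild-type library, so each could enter the test only through a higher level in *Adar1* E861A. *Oas1b* was above it in 1 wild-type and 3 *Adar1* E861A libraries, so its entry also rested on *Adar1* E861A. The count and median over members therefore give no support of their own. In CPM, every *Adar1* E861A library was above every wild-type library for 5 of the 7 members and for 7.25% of all genes tested. With 3 libraries against 3, an exact two-sided permutation test cannot give a p below 0.1.

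*Oasl2* was the most abundant member. It encodes an OAS protein with ubiquitin-like repeats at its end that, unlike *Oasl1*, keeps synthetase activity. Its counts were 184, 257 and 195 in *Adar1* E861A and 91, 69 and 66 in wild type, or 6.37, 7.08 and 7.26 CPM against 2.52, 1.81 and 1.85 CPM. The lowest mutant library stood well above the highest control library. *Oasl2* rose 3.35-fold (95% interval 2.72 to 4.12), a log2 fold change of 1.74 ± 0.14 (SE; adjusted p = 2.62e-06). With each library left out in turn the log2 fold change stayed between 1.67 and 1.90. Of the members, *Oasl2* alone met the study's own filter of at least 2 CPM in 3 of 3 libraries of either genotype.

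*Oasl1*, its neighbour, encodes an inactive OAS-like protein known to restrain translation of *Irf7*. It was counted 11, 14 and 10 times in *Adar1* E861A and 6, 1 and 2 times in wild type. This was 0.381, 0.386 and 0.372 CPM against 0.166, 0.0263 and 0.0560 CPM. The mutant libraries were almost level and all above the controls, of which replicate 1 was the highest. The log2 fold change of 2.16 ± 0.50 (SE) missed the threshold (adjusted p = 0.0722; exact permutation p = 0.1). Counting error alone gave a ratio of 4.65 with an exact 95% interval of 2.19 to 11.0. The call depended on the test, since *Oasl1* passed by the likelihood ratio test (adjusted p = 0.00222), by limma-voom (adjusted p = 0.0271) and without a filter on low counts (adjusted p = 0.0105). The fit without a filter gave no weight to a gene's own spread. The call also depended on 1 library: without wild-type replicate 1 the log2 fold change was 3.10 (adjusted p = 0.0196). Over the 6 omissions adjusted p ranged up to 0.309. *Gm13822*, which overlaps 38 exon bases of *Oasl1* on the opposite strand, was counted at most 2 times in a library.

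*Oas2* and *Oas3* encode the larger enzymes of the family, built from repeated OAS units, and the OAS3 product is the main source of 2-5A in human cells infected by several viruses. For *Oas2* the counts were 55, 58 and 70 against 21, 17 and 30, or 1.91, 1.60 and 2.61 CPM against 0.580, 0.446 and 0.840 CPM. Replicate 3 was the highest library within each genotype, and the genotypes did not overlap. *Oas2* rose 3.22-fold (95% interval 2.21 to 4.69; log2 fold change 1.69 ± 0.26, adjusted p = 0.00208). Over the 6 omissions adjusted p went no higher than 0.0386.

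*Oas3* was far scarcer, at 10, 13 and 14 counts in *Adar1* E861A and 1, 3 and 4 counts in wild type. In CPM this was 0.346, 0.358 and 0.521 against 0.0276, 0.0788 and 0.112. All mutant libraries exceeded all control libraries, of which replicate 1 held a single count. The fitted log2 fold change was 2.41 ± 0.48 (SE; adjusted p = 0.0269), and the ratio of counts, 5.53, had a counting interval of 2.53 to 13.7. This call was not stable: adjusted p was 0.0512 without *Adar1* E861A replicate 1 and 0.222 without *Adar1* E861A replicate 3. It was 0.123 without wild-type replicate 1 and 0.0530 without wild-type replicate 3. The log2 fold change stayed between 2.03 and 2.82.

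*Oas1a*, one of the mouse *Oas1* genes with synthetase activity, gave 15, 38 and 19 counts in *Adar1* E861A and 5, 7 and 1 counts in wild type. The levels were 0.520, 1.05 and 0.708 CPM against 0.138, 0.184 and 0.0280 CPM. *Adar1* E861A replicate 2 was the highest and wild-type replicate 3 the lowest, and no control library reached a mutant one. *Oas1a* rose 6.37-fold (95% interval 3.29 to 12.4; log2 fold change 2.67 ± 0.45, adjusted p = 0.00567). It passed in each of the 6 omissions, with adjusted p up to 0.0488.

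*Oas1b*, the flavivirus resistance gene of mice, carries a stop codon in C57BL/6 and other laboratory strains. It was counted 12, 13 and 18 times in *Adar1* E861A and 5, 17 and 6 times in wild type, or 0.416, 0.358 and 0.670 CPM against 0.138, 0.446 and 0.168 CPM. Wild-type replicate 2 was inside the mutant range, above replicates 1 and 2 of *Adar1* E861A. The log2 fold change was 0.87 with a 95% interval of -0.04 to 1.79 (adjusted p = 0.636; exact permutation p = 0.3). An interval this wide includes both no difference and a difference as large as that of *Oas2*. Without wild-type replicate 2 the log2 fold change was 1.60, its highest over the omissions, with an adjusted p of 0.179.

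*Oas1c*, which is reported to lack synthetase activity, gave 28, 34 and 17 counts in *Adar1* E861A and 23, 18 and 19 in wild type. Its levels were 0.970, 0.937 and 0.633 CPM against 0.636, 0.473 and 0.532 CPM. *Adar1* E861A replicate 3 lay at the level of wild-type replicate 1, a hair below it in CPM and a hair above it after TMM scaling. The log2 fold change of 0.64 (95% interval 0.08 to 1.20) did not pass (adjusted p = 0.545), and the smallest p of the permutation test, 0.1, was reached. *Oas1b* and *Oas1c* passed in none of the 13 alternative analyses in which each was tested.

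**Figure D1:**
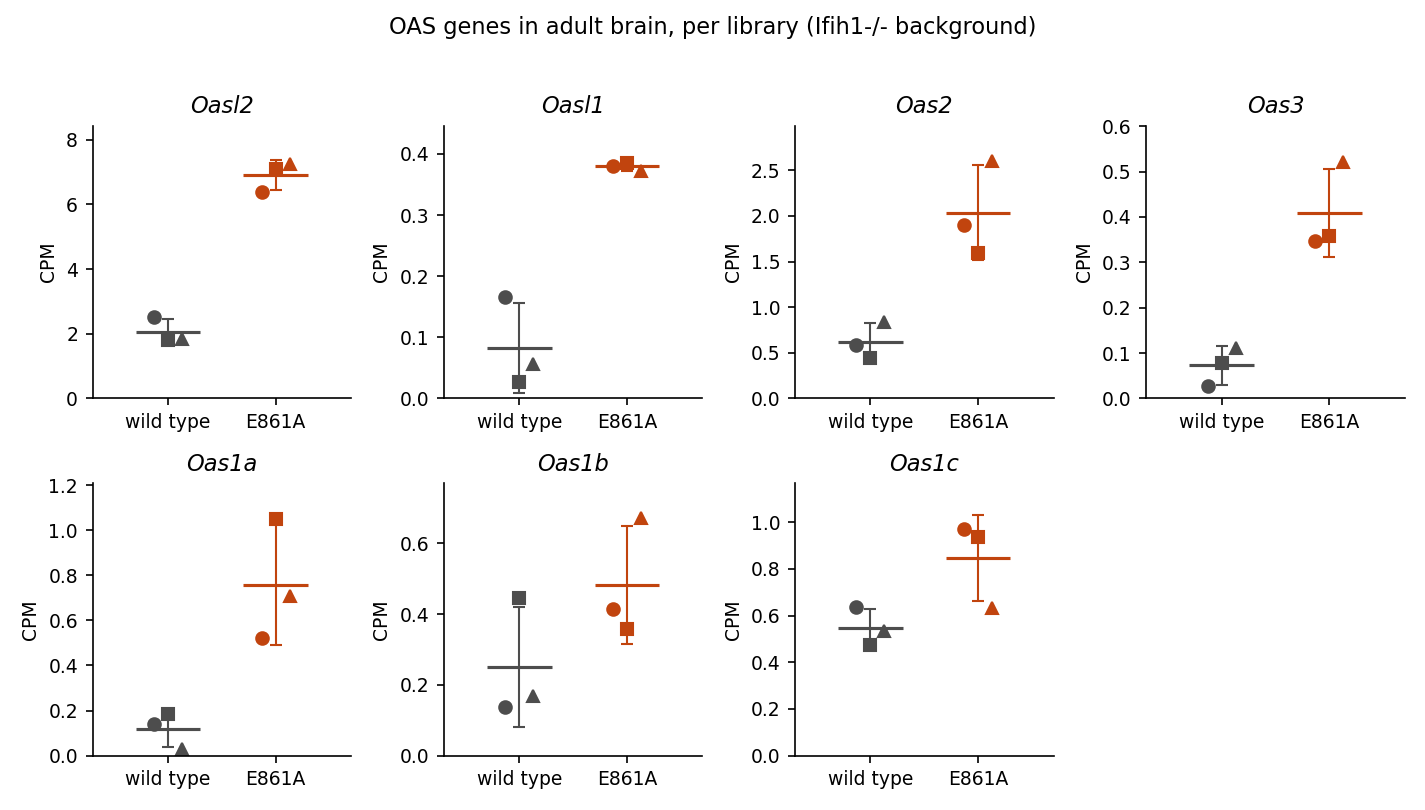
CPM of each OAS member in the 3 wild-type and 3 *Adar1* E861A libraries, all on the *Ifih1*-/- background; circles, squares and triangles are replicates 1, 2 and 3, horizontal lines are means and error bars SD. Genotypes are apart for *Oasl2*, *Oasl1*, *Oas2*, *Oas3* and *Oas1a*, and overlap for *Oas1b* and *Oas1c*.

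The order of the members was compared as CPM per kb of exon. In wild type the mean levels ran from *Oasl2* (0.530 CPM per kb) through *Oas1c* (0.212), *Oas2* (0.140), *Oas1b* (0.134), *Oas1a* (0.0584) and *Oasl1* (0.0317) to *Oas3* (0.0139). Of these neighbours in rank *Oasl2* and *Oas1c* alone were apart, and each later pair overlapped between libraries. In *Adar1* E861A the order was *Oasl2* (1.78 CPM per kb), *Oas2* (0.458), *Oas1a* (0.379), *Oas1c* (0.329), *Oas1b* (0.258), *Oasl1* (0.146) and *Oas3* (0.0782). *Oasl2* was again apart from the next gene, and so were *Oasl1* and *Oas3* from the genes above them, while *Oas2*, *Oas1a*, *Oas1c* and *Oas1b* overlapped each with the next. These levels use the full exon length, and since 41.7% of the 75-base windows of *Oas1a* are shared with *Oas1g*, the place of *Oas1a* in either order is a lower estimate.

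**Figure D2:**
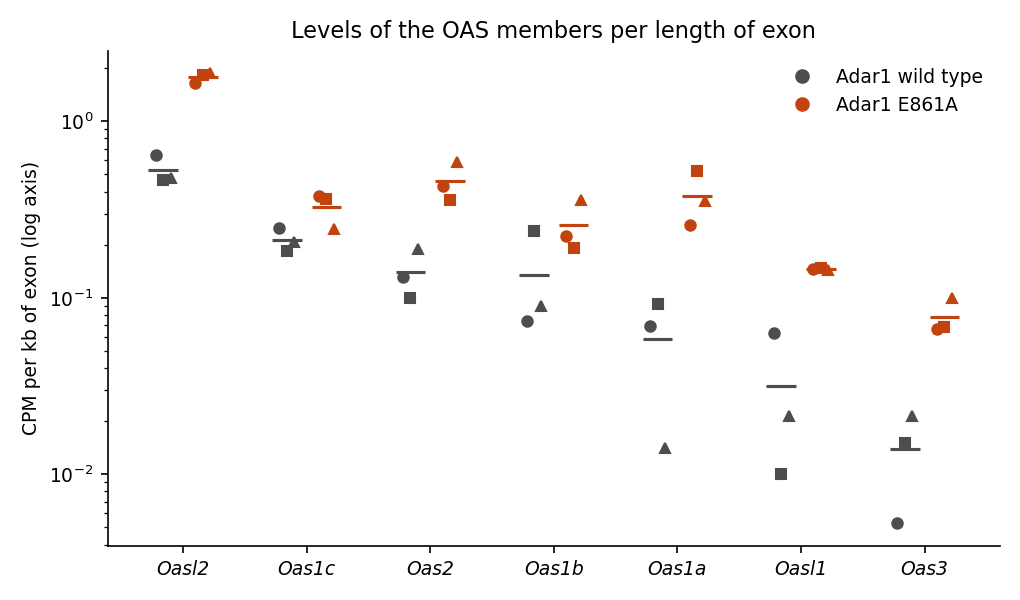
Level of each OAS member in CPM per kb of exon, on a log axis, by library (circles, squares and triangles are replicates 1, 2 and 3) with the mean as a line, wild type in grey and *Adar1* E861A in orange. *Oasl2* is the highest member in all 6 libraries and *Oas3* has the lowest mean in both genotypes.

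The members were also set against *Oas1c* within each library, a choice made after its values were seen, so the differences are described without a test. As log2 ratios of counts to *Oas1c* (0.5 added to each), *Oas1a* averaged -0.19 in *Adar1* E861A and -2.37 in wild type, a difference of 2.18. The corresponding differences were 1.81 for *Oas3*, 1.72 for *Oasl1*, 1.15 for *Oasl2*, 1.10 for *Oas2* and 0.43 for *Oas1b*. Since *Oas1c* had the smallest fold change of the members, positive differences follow from its choice. For all but *Oas1b* the 3 *Adar1* E861A ratios lay above the 3 wild-type ratios. The share of all genes apart in this way was not determined. These ratios do not depend on library scaling.

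*Oas1a* and *Oas1g* are close copies. Of the 2069 windows of 75 bases (the read length) in *Oas1a* transcripts, 863 (41.7%) also occurred in *Oas1g* and no other gene. Since the counting by STAR takes reads with a single alignment, read pairs wholly within such stretches could not be counted for either gene, and the level of *Oas1a* is a lower estimate. *Oas1c* shared 37 of 2847 windows (1.3%) with *Oas1d*, *Oas1e* or *Oas1f*, and *Oas1b*, *Oas2*, *Oas3*, *Oasl1* and *Oasl2* shared 0.

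None of the other *Oas1* copies had enough counts for the filter. *Oas1g*, the other active copy, was counted 8, 12 and 10 times in *Adar1* E861A and 2, 3 and 1 times in wild type, a ratio of 5.98 with a counting interval of 2.45 to 17.6. In a fit without the filter, over 29282 genes, of which 376 or 1.28% passed, its log2 fold change was 2.49 (adjusted p = 0.0089). That fit gave no weight to a gene's own spread. *Oas1h* was counted 2 times in each *Adar1* E861A library and 0 times in each wild-type library, below what allows a fold change. *Oas1e* had 2, 1 and 0 counts in wild type and 0 in *Adar1* E861A, *Oas1d* had 1 count in wild-type replicate 2, and *Oas1f* had 0 counts in all 6 libraries. *Oas1a* and *Oas1g* were both higher in all 3 *Adar1* E861A libraries than in all 3 wild-type libraries. The same motif run lies between *Oas1b* and *Oas1c*, whose CPM overlapped between genotypes, for *Oas1c* only just. Their log2 fold changes were 0.87 and 0.64, and neither gene passed. Their ratios of counts had counting intervals of 1.11 to 3.07 and 1.11 to 2.24. A link between the motif and these changes was not tested.

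The 3 tested genes that limit the pathway or degrade 2-5A did not pass. *Abce1*, an inhibitor of the 2-5A pathway that also recycles ribosomes, averaged 97.4 CPM in *Adar1* E861A and 92.4 CPM in wild type, 1.05-fold (95% interval 0.972 to 1.13; adjusted p = 0.768). *Pde12*, a 2′-phosphodiesterase that degrades 2-5A, averaged 13.6 and 12.5 CPM, 1.08-fold (0.971 to 1.20; adjusted p = 0.734). *Akap7*, whose product can also cleave 2-5A, averaged 48.4 and 47.8 CPM, 1.01-fold (0.924 to 1.10; adjusted p = 0.981).

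Of 28 listed genes of OAS function, dsRNA sensing and interferon signalling, 20 were tested and 2 passed, both higher in *Adar1* E861A. The median log2 fold change of the 20 was 0.15, and 18 were above 0. Over all 19366 genes tested 0.568% passed, the median was 0.00010 and 9690 were above 0. The list was written with earlier results of these data known, so its counts give no support of their own. *Irf7*, the interferon-induced amplifier of interferon transcription, averaged 3.36 ± 0.448 CPM in *Adar1* E861A and 1.41 ± 0.589 CPM in wild type (SD, n = 3). Its fitted log2 fold change was 1.25 ± 0.23 (adjusted p = 0.0129). Without *Adar1* E861A replicate 3 it did not pass (adjusted p = 0.199), although its log2 fold change was still 1.15. That library had the highest summed level of other myeloid markers, and the part of this in the *Irf7* values was not tested. *Ddx58*, which encodes the RNA sensor RIG-I, averaged 8.80 ± 0.821 against 5.38 ± 0.166 CPM (log2 fold change 0.70 ± 0.10, adjusted p = 0.00152). The fitted changes of *Irf7* and *Ddx58* lay below those of the 4 OAS members that passed, and the differences between genes were not tested. *Oas3* and *Oas1a* could enter the test only through a higher level in *Adar1* E861A, which favours their place in this order. The interferon genes *Ifnb1*, *Ifna4* and *Ifng* were counted 0 times in all 6 libraries, and both receptor genes, *Ifnar1* and *Ifnar2*, had log2 fold changes between -0.02 and 0.05.

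**Figure D3:**
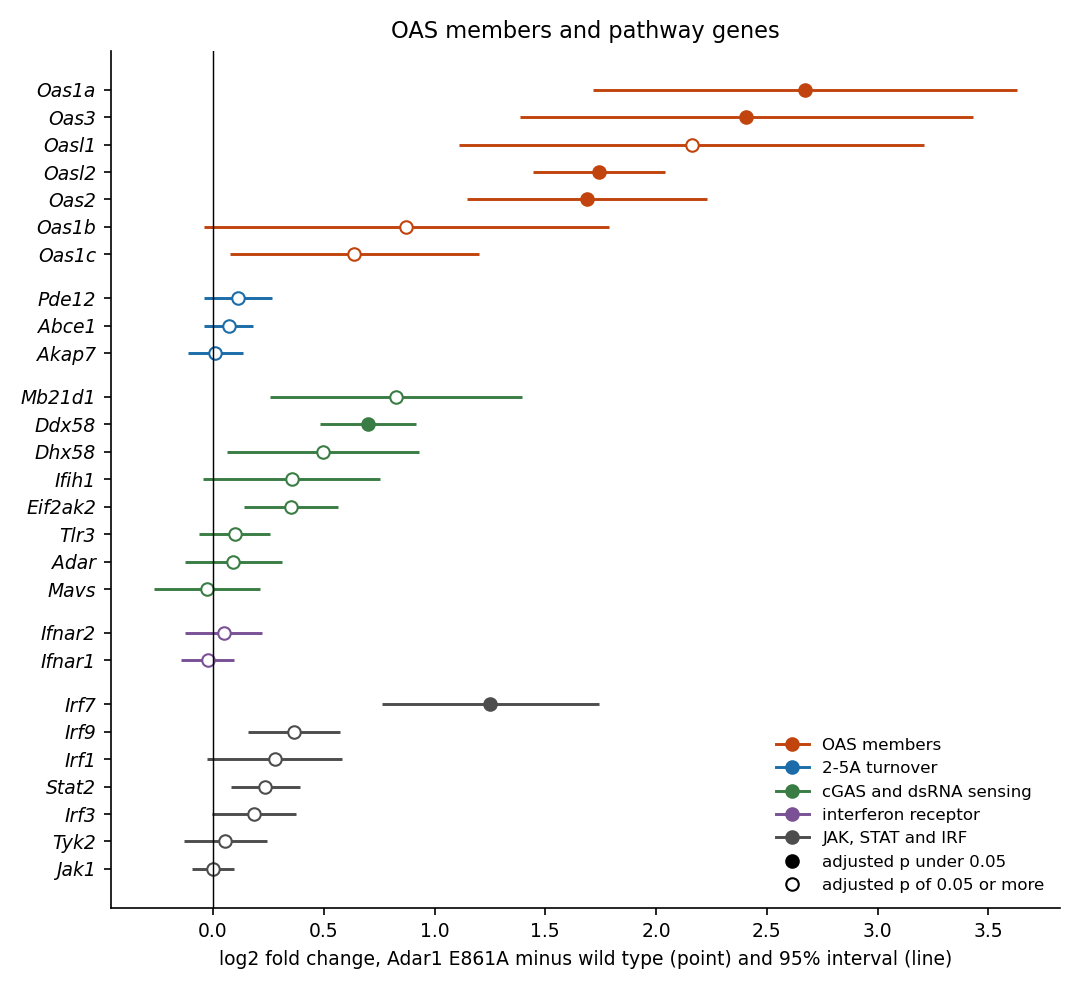
Log2 fold change (point) and 95% interval (line) of the 7 OAS members and the 20 tested pathway genes, *Adar1* E861A minus wild type; filled points have an adjusted p under 0.05. Of the OAS members 4 are filled, and *Abce1*, *Pde12* and *Akap7* lie between 0.01 and 0.11.

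Genes around the members were read from the same fit. Within 500 kb of either run 54 other genes were tested and 0 passed by edgeR's quasi-likelihood test, with 1 at an unadjusted p under 0.05. The likelihood ratio test, DESeq2 and limma-voom also called 0. Their median log2 fold change was -0.03, and 22 of 54 were above 0. The nearest tested gene after *Oasl1*, *2210016L21Rik* at 4.2 kb, had a log2 fold change of -0.07 ± 0.06. Those before *Oas2* (*Dtx1*, 18.4 kb) and after *Oas1a* (*Rph3a*, 33.0 kb) had -0.04 ± 0.06 and -0.03 ± 0.06. Before *Oasl2* the nearest tested gene, ENSMUSG00000054123 at 38.3 kb, had the highest log2 fold change of the 54, 0.84 ± 0.44 (adjusted p = 0.651). It was counted 4 to 15 times in a library. *4930519G04Rik*, at 13.3 kb before *Oasl2*, was counted at most 3 times in a library, and *Oas1d*, 6.8 kb after *Oas1a*, 1 time in all. Of all genes tested 0.568% passed, so a set of 54 genes could hold 0 calls without differing from the rest.

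**Figure D4:**
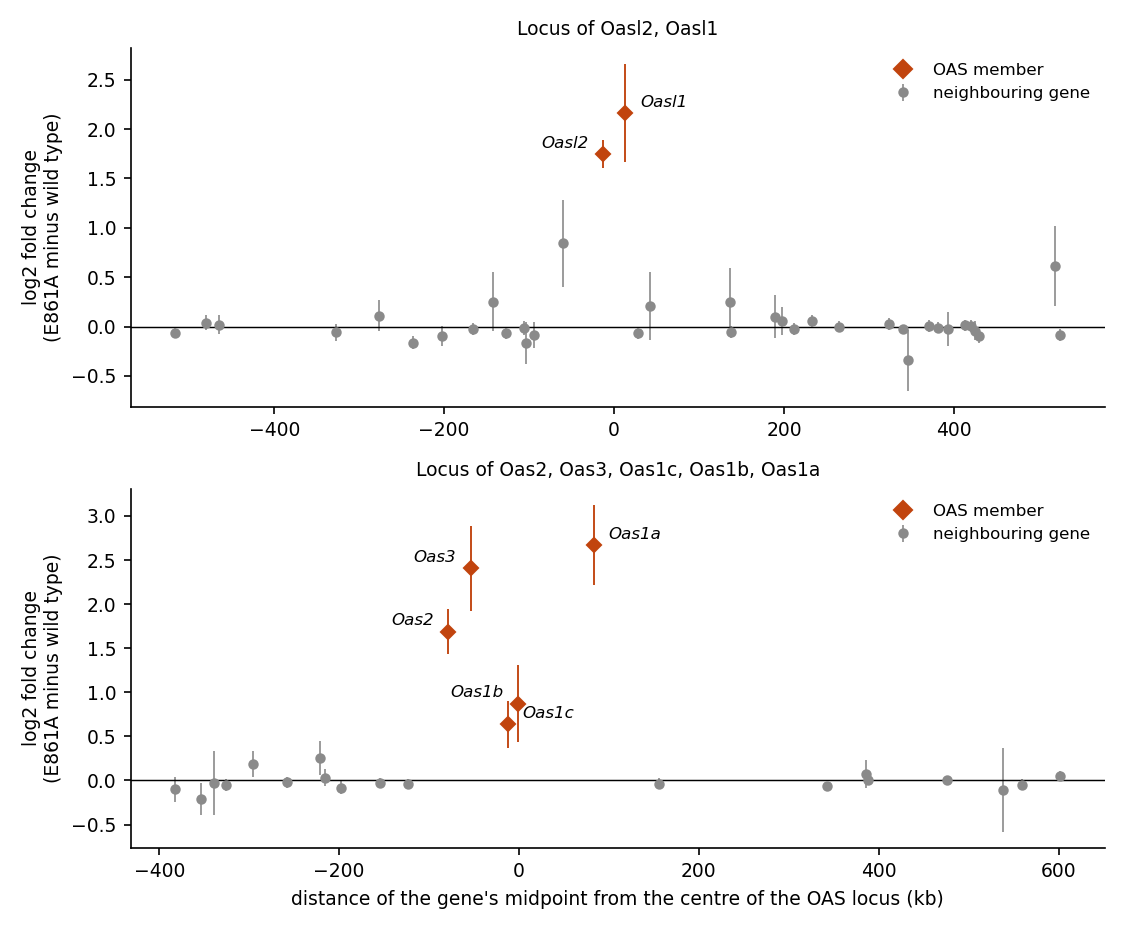
Log2 fold change (point) and SE (line) of tested genes around the run of *Oasl2* and *Oasl1* (top) and the run of *Oas2* to *Oas1a* (bottom) against the distance of the gene's midpoint from the centre of the run in kb. OAS members (orange) lie between 0.64 and 2.67 and the other genes (grey) between -0.34 and 0.84.

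The genes most like *Oasl2* over the 6 libraries were taken by the root mean square difference of log2 TMM-scaled CPM (2 counts added), each gene centred on its wild-type mean. They were *H2-Q6* (0.0849), *Usp18* (0.144), *Tgtp1* (0.168), *Gm43302* (0.175) and *Nlrc5* (0.180), with fitted log2 fold changes from 1.64 to 2.00. *H2-Q6* and *Tgtp1* belong to families of very similar genes, for which shared reads were not examined. By the same measure *Oasl1* (0.285), *Oas2* (0.353) and *Oas3* (0.454) were nearer to *Oasl2* than *Oas1a* (0.630), *Oas1b* (0.828) and *Oas1c* (0.856). Centred on wild type, the measure largely restates the genotype difference, so similar fold changes follow from the choice. The added counts also pull scarce genes towards 0. In *Adar1* E861A, *H2-Q6* (fitted 2.00) stood at 1.71 to 1.75 and *Oasl1* (fitted 2.16) at 1.72 to 1.79.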

How the data were processed

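RNA from whole brain was depleted of ribosomal RNA, made into stranded libraries and sequenced as pairs of 75-base reads. According to the submitters' processing notes and the methods of the study, reads were trimmed with Trimmomatic 0.36 and aligned to NCBIM37 (mm9) with STAR 2.5.2a, whose gene counts the authors deposited as raw counts, 1 column per library. The strand column taken from STAR was not given in the sources used here. The authors' CPM tables and their table of fold changes and false discovery rates from edgeR were not used.

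All 37310 gene identifiers were found in GENCODE vM1. CPM were computed from column totals, 26853488 to 38076753 counts, which limit members of about 10 counts to wide intervals. Intervals of count ratios are exact, conditional and for counting error only. Genotypes were compared in R 4.3.3 with edgeR 4.0.16 (TMM factors 0.979 to 1.03, quasi-likelihood test, no covariate, Benjamini-Hochberg adjustment, threshold 0.05). The filterByExpr filter (19366 genes) replaced the filter of the study (2 CPM in 3 of 3 libraries of either genotype, 13649 genes as applied here), which kept 1 member. The script was tested on simulated counts. Alternatives were edgeR's likelihood ratio test, DESeq2 1.42.0, limma-voom (limma 3.58.1), other scalings and filters, a replicate block and the omission of each library. Replicates of a genotype differed beyond sampling noise.

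The genes, lists and tests were chosen with earlier results of these data known. Named are the 7 members, the other *Oas1* genes, *Abce1*, *Pde12*, *Akap7*, called pathway genes, called or nearest neighbours within 500 kb, and the 5 genes most like *Oasl2*. Interferon and receptor genes, *Adar*, *Ifih1* and marker genes are given as checks. Of the marker lists, blood (21.8 to 37.8 CPM), lymphocytes (3.72 to 4.61 CPM) and oligodendrocytes (4148 to 4500 CPM) overlapped between genotypes. *Gh* and *Prl* were at 0 in at least 1 library, and *Hbb-b1* and *Lhb* were not found by symbol. Some genes of the pathway and marker lists are not reported here and were left out of their counts.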

Additional observations from a re-analysis of the deposited data

How the results depend on the processing

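No log2 fold change of a member changed sign in any alternative. *Oasl2*, *Oas2* and *Oas1a* passed in each alternative that tested them. The number of members called was 4 in the main analysis, 5 by the likelihood ratio test, limma-voom or without a filter on low counts, where *Oasl1* passed, and 3 by DESeq2, which gave *Oasl1* and *Oas3* no adjusted p (unadjusted p = 0.00373 and 0.00118). With a CPM of at least 1 in 3 libraries it was 2, since that filter left *Oasl2* and *Oas2* to test, and it was 3 to 4 over the omissions of a library. Calls over all 19366 genes numbered 110, and 180 by the likelihood ratio test, 376 without a filter (over 29282 genes) and 63 to 187 over the omissions. Pathway genes called numbered 2, 5 without a filter and 1 to 3 over the omissions; without *Adar1* E861A replicate 3, *Irf7* was lost. Neighbours called numbered 0, 1 without a filter (*Oas1g*) and 0 over the omissions. With the filter of the study, as applied here, 69 genes were called, 139 by the likelihood ratio test and 42 to 111 over the omissions. The study itself reported more genes kept by its filter and more genes called with edgeR. Fold changes of *Oas3*, *Oasl1* and *Oas1b* are limited by 1 to 18 counts per library. That of *Oas1a* is limited by 5, 7 and 1 counts in the wild-type libraries. Replicate numbers were shared between genotypes, but their origin is not stated. Deviations of same-numbered libraries correlated at 0.0977, 0.203 and 0.0558 over all genes tested and at 0.221, 0.329 and 0.112 over the 13649 genes of the study's filter. In the first set *Adar1* E861A replicate 3 correlated slightly better with wild-type replicate 1 (0.0688) than with its own number. With the replicate block 233 genes were called in place of 110 and 158 in place of 69, and the members called were the same 4. Of the pathway genes *Irf9* was added (adjusted p = 0.173 without and 0.0322 with the block), which made 3.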
